A study of Mus musculus with 6 samples.

Results

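The S100 proteins are small calcium-binding proteins, and 8 of their genes were followed here in alveolar macrophages, which patrol and clear the surface of the lung. The 8 genes, S100a1, S100a4, S100a6, S100a8, S100a9, S100a10, S100a11 and S100a13, were taken by symbol from a table of 17142 genes, and each had a single row. Expression was measured by bulk RNA-seq of total RNA from primary cells of mice exposed to an allergen, in 3 libraries of wild type and 3 of Trim33 knockout. All 6 libraries came from exposed animals after a single challenge, so there is no unexposed control, and the strain, the age, the allergen and the way Trim33 was deleted are not stated in the sources used here. Values are TPM, a share of the transcripts in a library scaled by gene length that sums to 1000000, so levels of different genes can be set side by side, but the sequencing depth behind them is unknown. The labels do not say whether the replicates were separate animals, so the spread behind each p-value is that among these libraries and may be technical.

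S100 proteins carry a pair of EF-hand helix-loop-helix motifs that change shape when calcium binds, which exposes a surface that grips partner proteins, and most act as dimers. Inside the cell they steer annexins, myosin and other partners, and several are released and act as alarm signals on the receptors TLR4 and RAGE. In myeloid cells S100A8 and S100A9 form calprotectin, which sequesters zinc and manganese from microbes and is a hallmark of neutrophils and monocytes. S100A4 and S100A6 are better known from motile and proliferating cells.

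S100a4 and S100a6 were the only 2 of the 8 genes that passed the test, and both rose in the knockout libraries, S100a6 by 3.35-fold and S100a4 by 2.37-fold in mean TPM. No gene of the 8 was lower at the same threshold. The threshold was a Benjamini-Hochberg adjusted p under 0.05 in a limma fit on log2(TPM + 1) over 11111 genes, at which 4.47% of genes were higher and 10.2% were lower. The 8 genes had a median log2 difference of 0.23 between knockout and wild type, with 7 of 8 positive, while all tested genes had a median of -0.15, with 28.1% positive. The median of all tested genes depended on the scaling, at -0.0057 after median-ratio scaling and -0.049 after quantile normalization. The shares of genes that were positive or lay wholly apart are those of the unscaled TPM. The direction of the 2 smallest differences, of S100a11 and S100a13, turned with the scaling, and values for both are given with those genes. The 3 knockout values lay wholly above the 3 wild-type values for 4 of the 8 genes and wholly below for 0, where 9.84% and 34.6% of all tested genes did so.

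Both genes that passed lie in the S100 gene cluster of chromosome 3, with S100a5 between them. Their promoters, from 250 bases before to 50 bases after the annotated transcript start in RefSeq on GRCm38.p6, are shown because both genes passed. Capitals mark the matches to the motifs searched, and both sequences are read on the plus strand, 5′ to 3′. S100a4 covers chr3:90603520-90603819 and S100a6 covers chr3:90612644-90612943.
S100a4: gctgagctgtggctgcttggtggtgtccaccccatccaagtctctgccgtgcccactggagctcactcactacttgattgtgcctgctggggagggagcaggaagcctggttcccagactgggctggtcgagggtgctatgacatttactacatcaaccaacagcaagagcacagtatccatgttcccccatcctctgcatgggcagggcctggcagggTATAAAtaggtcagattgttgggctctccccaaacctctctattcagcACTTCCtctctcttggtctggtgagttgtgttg
S100a6: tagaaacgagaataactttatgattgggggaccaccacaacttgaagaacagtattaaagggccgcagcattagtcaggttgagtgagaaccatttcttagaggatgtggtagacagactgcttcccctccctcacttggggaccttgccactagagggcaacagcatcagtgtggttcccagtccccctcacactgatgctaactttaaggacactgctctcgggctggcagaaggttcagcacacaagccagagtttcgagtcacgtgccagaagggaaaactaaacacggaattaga
The motifs searched on both strands were TATAAA (the TATA box), GGAAGT (a core bound by ETS factors such as PU.1), TTGCNNAA (C/EBP), TGANTCA (AP-1), GTCTAGAC (SMAD), GAAANNGAA (interferon-stimulated response element), TTCNNNGAA (STAT) and GGGANTTTC (NF-κB). The S100a4 window held TATAAA, whose first base lay 31 bases before the start, and GGAAGT on the reverse strand, where its match reads ACTTCC, 17 bases past the first transcribed base. These 2 matches do not overlap. The S100a6 window held none of the 8 motifs in these letters. Over 32851 promoter windows of 300 bases, 13.6% held TATAAA and 23.8% held GGAAGT. A promoter row was matched for 7 of the 8 members, all but S100a10. GGAAGT was in the windows of 6 of these 7, S100a1, S100a8, S100a9, S100a11 and S100a13 besides S100a4. The S100a1 and S100a13 windows overlap on opposite strands, and their GGAAGT matches are the same site, counted for both genes. S100a8 and S100a9 also held TATAAA, which began 30 bases before the start in S100a8 but on the annotated first transcribed base in S100a9. S100a11 held a pair of TGANTCA matches, a motif present in 7.81% of all windows. S100a1 held GAAANNGAA (8.56% of windows), and S100a9 held TTGCNNAA (10.8%) and GGGANTTTC (1.11%). A match in letters is a description and not a bound site.

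S100a6 encodes calcyclin, a cytoplasmic dimer that binds annexins and the ubiquitin-ligase adaptor CacyBP. Its level was 44.59, 20.73 and 30.18 TPM in wild-type replicates 1, 2 and 3 and 123.93, 104.34 and 92.11 TPM in knockout replicates 1, 2 and 3. Every knockout library was therefore above every wild-type library, with wild-type replicate 2 the lowest of all. The means were 31.8 ± 12.0 TPM in wild type against 106.8 ± 16.1 TPM in knockout (SD, n = 3 each). The log2 difference was 1.77 ± 0.27 (SE), with a 95% interval of 1.11 to 2.43 and a limma adjusted p of 0.0172. The call was lost when wild-type replicate 3, knockout replicate 1 or knockout replicate 2 was left out, where the adjusted p was 0.0633, 0.0688 and 0.0746, while the difference was at least 1.505 and at most 2.04 over the 6 such fits.

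S100a4 encodes metastasin, which binds the heavy chain of non-muscle myosin IIA and is also named fibroblast-specific protein, although myeloid cells make it too. Its level was 39.07, 19.04 and 22.56 TPM in wild-type replicates 1, 2 and 3 and 62.66, 61.71 and 66.62 TPM in knockout replicates 1, 2 and 3. The groups did not overlap, and the knockout libraries were much closer to each other than the wild-type libraries were. The means were 26.9 ± 10.7 TPM in wild type against 63.66 ± 2.604 TPM in knockout (SD, n = 3 each). The log2 difference was 1.28 ± 0.24 (SE), with a 95% interval of 0.71 to 1.85 and a limma adjusted p of 0.0224. The call held without wild-type replicate 1 and was lost when any other library was left out, with adjusted p of 0.0558 and 0.0705 without wild-type replicates 2 and 3 and of 0.0856, 0.0812 and 0.0549 without knockout replicates 1, 2 and 3. The difference itself stayed between 1.07 and 1.57.

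The pair differed in their proportion as well as in their level. S100a6 was above S100a4 in every library, at 1.09 to 1.34 times its TPM in wild type and 1.38 to 1.98 times in knockout. Together they made up 0.828% to 1.51% of the summed TPM of the 8 genes in wild type and 2.70% to 3.29% in knockout. The exact two-sided permutation test on the log2 values gave p = 0.1 for each of S100a4, S100a6, S100a8 and S100a10. This is the smallest value that 3 libraries against 3 allow. S100a8 and S100a10 did not pass in the limma fit, so the permutation test did not separate S100a4 and S100a6 from them.

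**Figure D1:**
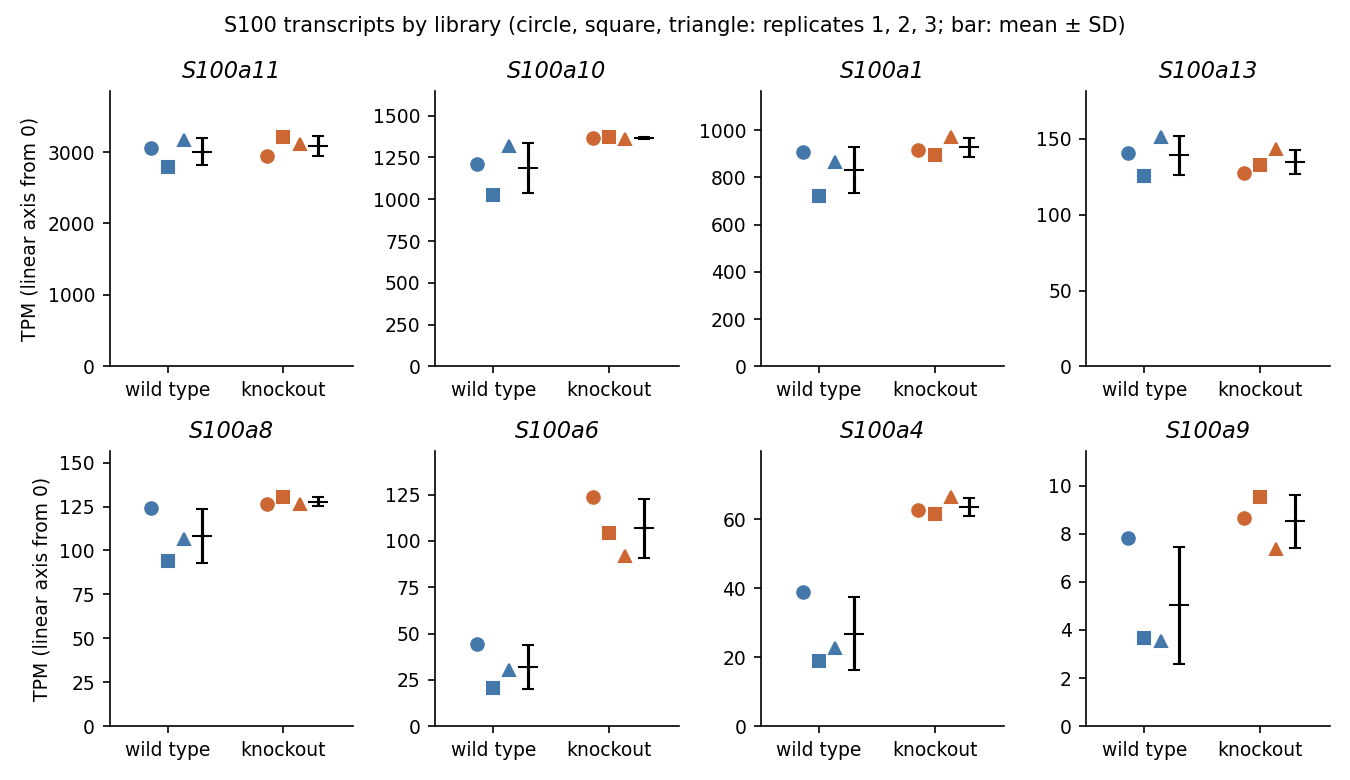
TPM of the 8 S100 genes in each library (vertical axes linear from 0, one panel per gene, ordered by wild-type mean), with wild type in blue, knockout in orange, symbols for replicates 1, 2 and 3 and a black bar for the mean ± SD. S100a6 and S100a4 show knockout points well above all wild-type points, while S100a11 and S100a13 show groups that overlap.

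S100a8 and S100a9 encode the 2 chains of calprotectin, and here their transcripts were far from equal. S100a8 stood at 124.22, 94.05 and 106.43 TPM in wild-type replicates 1, 2 and 3 and at 126.22, 130.61 and 126.49 TPM in knockout replicates 1, 2 and 3. The knockout values lay just above the highest wild-type value, that of replicate 1. S100a9 stood at 7.83, 3.68 and 3.56 TPM in the same order in wild type, against 8.67, 9.54 and 7.35 TPM in knockout. Wild-type replicate 1 was well above the other two wild-type libraries and also above knockout replicate 3, so the groups overlapped. The ratio of S100a8 to S100a9 ran from 15.9 to 29.9 in wild type and from 13.7 to 17.2 in knockout.

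Neither calprotectin gene passed. S100a8 had a log2 difference of 0.25 ± 0.10 (SE), with a 95% interval of 0.02 to 0.47 and a limma adjusted p of 0.112. S100a9 had a log2 difference of 0.73 ± 0.25, with a 95% interval of 0.17 to 1.28 and a limma adjusted p of 0.0711. Both passed when wild-type replicate 1 was left out, S100a8 with a difference of 0.35 (adjusted p 0.0163) and S100a9 with 1.04 (adjusted p 0.00203). Without any 1 of the other 5 libraries neither gene passed.

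S100a10 and S100a11, with S100a1, were the abundant members. S100a10, also called p11, does not respond to calcium and holds annexin A2 at the membrane, where it captures plasminogen. It had 1211.64, 1028.06 and 1320.36 TPM in wild-type replicates 1, 2 and 3 and 1366.57, 1373.22 and 1361.03 TPM in knockout replicates 1, 2 and 3. The knockout libraries agreed closely and all lay above the wild-type libraries, yet the log2 difference of 0.21 ± 0.10 (SE) did not pass (95% interval -0.0044 to 0.43, limma adjusted p 0.140). S100a11, a partner of annexin A1, had 3057.41, 2794.09 and 3164.2 TPM in wild type, against 2939.51, 3211.28 and 3111.01 TPM in knockout. Its groups overlapped, with a log2 difference of 0.04 ± 0.08 (95% interval -0.14 to 0.22, limma adjusted p 0.741), which was 0.20 after median-ratio scaling and -0.18 after quantile normalization and passed in neither.

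S100a1 is best known from heart muscle, where it raises calcium release and uptake by the sarcoplasmic reticulum, but it ranked among the 198 most abundant genes in each of these macrophage libraries. It had 907.01, 720.57 and 866.52 TPM in wild-type replicates 1, 2 and 3 and 917.02, 893.39 and 970.97 TPM in knockout replicates 1, 2 and 3. Knockout replicate 2 fell below wild-type replicate 1, and the log2 difference of 0.16 ± 0.10 (SE) did not pass (95% interval -0.05 to 0.38, limma adjusted p 0.240). S100a13 takes part in the release of FGF1 and interleukin-1α, proteins that lack a signal peptide. It had 140.42, 125.38 and 151.24 TPM in wild type, against 127.76, 132.91 and 143.18 TPM in knockout, and the knockout values lay inside the wild-type range. Its log2 difference was -0.04 ± 0.09 (95% interval -0.25 to 0.16, limma adjusted p 0.748) and 0.11 after median-ratio scaling. The annotated ends of S100a1 and S100a13 overlap by 98 bases on opposite strands, and whether strand was used in the quantification is not stated in the sources used here, so reads in that stretch may not have been separable.

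**Figure D2:**
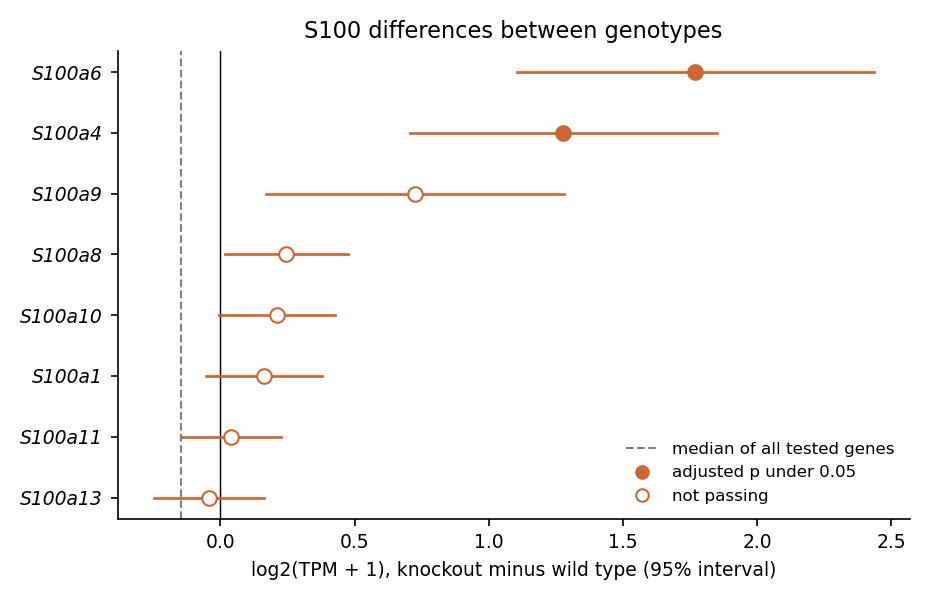
Log2 difference of log2(TPM + 1) between knockout and wild type for each S100 gene (horizontal axis, with 95% interval; filled points pass at an adjusted p under 0.05), with the dashed line at the median of all tested genes, -0.15. S100a6 at 1.77 and S100a4 at 1.28 stand apart from the other 6 genes, which lie between -0.04 and 0.73.

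The order of levels from the highest mean down was S100a11, S100a10, S100a1, S100a13, S100a8, S100a6, S100a4 and S100a9 in both genotypes. In wild type the 3 libraries of neighbouring genes in this order did not overlap except for S100a6 and S100a4, although the lowest S100a13 value, 125.38 TPM, was close to the highest S100a8 value, 124.22 TPM. In knockout the exception was instead S100a13 and S100a8, whose means differed by 1.05 times, and S100a6, at 106.8 TPM, had come close under S100a8, at 127.8 TPM. S100a11, S100a10 and S100a1 made up 93.6% to 94.5% of the summed TPM of the 8 genes in wild type and 92.1% to 92.6% in knockout. The sum was 5334 ± 463 TPM in wild type against 5823 ± 132 TPM in knockout (SD, n = 3 each), or 0.481% to 0.567% and 0.567% to 0.592% of all transcripts.

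Variation within a genotype was uneven across the genes. The coefficient of variation in wild type was 48.4% for S100a9, 39.8% for S100a4 and 37.7% for S100a6, but 6.34% for S100a11. In knockout it was at most 15.0%, for S100a6, and 0.447% for S100a10. Wild-type replicate 2 held the lowest of all 6 values for 7 of the 8 genes, and wild-type replicate 3 for S100a9. The median-ratio factor of wild-type replicate 2, which is high where a typical gene is high, was 1.17, against 1.0002 and 1.02 in the other two wild-type libraries and 0.939 to 0.960 in knockout, and its part in these results was not tested. After median-ratio scaling S100a4 and S100a6 still passed, with log2 differences of 1.43 and 1.92. Dividing by these factors lowers wild-type replicate 2 and raises the knockout libraries, so this scaling could only widen differences that were already positive.

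**Figure D3:**
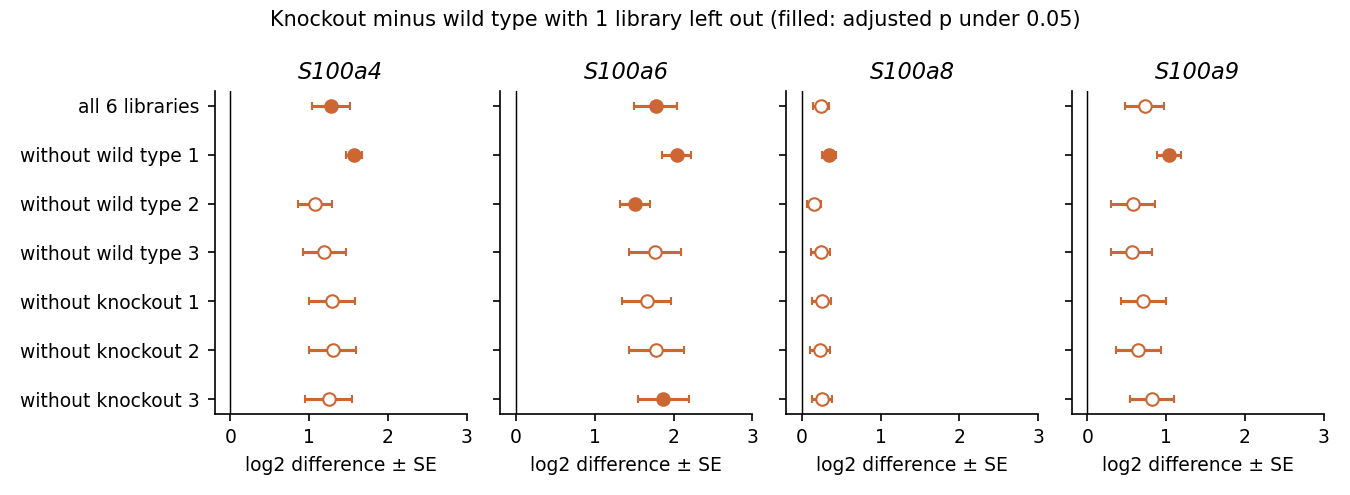
Log2 difference ± SE between knockout and wild type (horizontal axes) for S100a4, S100a6, S100a8 and S100a9, with all 6 libraries and with each library left out in turn (vertical axis); filled points pass at an adjusted p under 0.05. The S100a4 and S100a6 points stay between 1.07 and 2.04 while their calls come and go, and S100a8 and S100a9 pass only without wild-type replicate 1.

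The label of the cells was checked against marker lists. Markers of alveolar macrophages summed to 29066 to 30795 TPM in wild type against 20447 to 22969 TPM in knockout, mostly from Chil3 (18104 and 12585 TPM as means), which encodes a chitinase-like protein. At the threshold that 10.2% of all genes passed as lower, 5 of 10 were lower and none was higher. They included Siglecf (382 ± 46.4 to 272 ± 9.35 TPM), Ear1 (2166 ± 94.6 to 1274 ± 186 TPM) and Ear2 (4257 ± 527 to 2737 ± 232 TPM). Of the markers that did not pass, Car4 had a higher mean in knockout, 2193 against 1481 TPM (limma adjusted p 0.0750), as did Itgax, with a log2 difference of 0.07. The Siglecf and Ear2 calls were lost after median-ratio scaling, and the Siglecf call also without wild-type replicate 3 or knockout replicate 1 or 2 (adjusted p up to 0.0637 for Siglecf and 0.0582 for Ear2). Trim33, the targeted gene, was at 6.83, 10.97 and 6.86 TPM in wild type, against 2.63, 3.34 and 3.98 TPM in knockout (limma adjusted p 0.0114).

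Neutrophils and monocytes, the cells richest in calprotectin, were looked for in the same way. Of 11 neutrophil markers, 3 passed the filter on low values and none was called, where 4.47% of all tested genes were higher and 10.2% lower. Ly6g, the defining surface antigen of mouse neutrophils, was listed at 0 in 5 of 6 libraries and at 0.2 TPM in knockout replicate 1. The granule gene Camp was listed at 0 throughout wild type, and Retnlg stayed between 0.64 and 1.88 TPM. The list summed to 54.2 to 99.1 TPM in wild type against 42.2 to 64.3 TPM in knockout, mostly from Mmp8 (49.4 and 26.9 TPM as means of wild type and knockout) and Csf3r (18.1 and 13.35 TPM).

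Monocyte markers moved in the same direction as S100a4 and S100a6. Of 6 tested genes of 7 on the list, 3 were higher and none lower, where 4.47% and 10.2% of all tested genes were. The list summed to 14.2 to 16.6 TPM in wild type against 39.9 to 127 TPM in knockout. Ly6c2, the surface antigen of inflammatory monocytes, was at 6.03, 1.73 and 3.99 TPM in wild-type replicates 1, 2 and 3 and at 74.53, 73.32 and 18.82 TPM in knockout replicates 1, 2 and 3. Plac8 rose from 3.197 ± 0.569 to 29.9 ± 14.7 TPM. Vcan, which encodes the proteoglycan versican, rose from 0.673 ± 0.0289 to 2.32 ± 0.659 TPM. Ccr2, the chemokine receptor of the same cells, had 4.83 ± 0.946 and 4.50 ± 1.65 TPM (SD, n = 3 each) and did not pass. The 3 monocyte calls were each lost when wild-type replicate 3 or knockout replicate 1 was left out, those of Ly6c2 and Plac8 also without wild-type replicate 2 and those of Ly6c2 and Vcan also without knockout replicate 2 (adjusted p up to 0.153, 0.0739 and 0.0705 for Ly6c2, Plac8 and Vcan). Knockout replicate 3, with the lowest monocyte sum of the knockout libraries, 39.9 TPM, had the highest S100a4, 66.62 TPM, and the lowest S100a6, 92.11 TPM. The part of these cells in the S100 results was not tested, and in bulk RNA fewer cells of a type cannot be told apart from less RNA per cell.

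Fibroblast markers, relevant to S100a4, summed to 18.5 to 42.1 TPM in wild type against 26.6 to 36.8 TPM in knockout, so the groups overlapped. None of the 4 tested was called, but all 4 had a positive log2 difference, with a median of 0.31, where 28.1% of all tested genes were positive. Their part in the S100a4 result was not tested. None of the tested markers of eosinophils (1), lymphocytes (2), epithelium (5) or endothelium (4) was called. Over all tested genes 4.47% were higher and 10.2% lower, so few calls would be looked for in lists this short. Of 3 tested dendritic cell markers, the chemokine receptor gene Ccr7 rose from 1.65 ± 0.464 to 4.93 ± 0.922 TPM. The other two did not pass and had lower means in knockout, with Clec9a at 2.54 and 2.30 TPM and Cd209a at 2.04 and 1.76 TPM in wild type and knockout. The list summed to 7.94 to 8.96 TPM in wild type against 9.03 to 12.1 TPM in knockout.

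Annexins are intracellular partners of S100 proteins. None of 9 tested annexins was called, with a median log2 difference of 0.06, and Anxa2, the partner of S100A10, had 2187 ± 121 TPM in wild type against 2349 ± 86.2 TPM in knockout. Anxa4 had a mean of 452 TPM in wild type against 590 TPM in knockout (log2 difference 0.39, limma adjusted p 0.0546) and Anxa5 a difference of 0.26 (adjusted p 0.0812), both with every knockout value above every wild-type value. Anxa9 went the other way, with knockout wholly below wild type (log2 difference -0.40, adjusted p 0.116), and 5 of the 9 were positive. None of 10 receptors and signalling partners of released S100 proteins was called either. Over all tested genes 4.47% were higher and 10.2% lower, so few calls would be looked for among 9 or 10 genes. Bsg, which encodes basigin, had a difference of 0.24 with knockout wholly above wild type (adjusted p 0.0750). The largest difference of the 10 was that of Mcam, -0.90, from 58.1 to 29.7 TPM as means with groups that overlapped (adjusted p 0.104). Of the 10, 5 were positive. Among the others, Tlr4 had 39.2 and 33.9 TPM (limma adjusted p 0.191) and Ager, which encodes RAGE, had 4.85 and 5.17 TPM (adjusted p 0.973) as means of wild type and knockout.

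Of 14 tested intracellular and plasminogen-related partners, 2 were higher and none lower, with a median of -0.02. The shares over all tested genes were 4.47% higher and 10.2% lower. Plau, which encodes the plasminogen activator urokinase, rose from 17.7 ± 2.31 to 29.1 ± 4.94 TPM, and Ctsb, a cathepsin gene, from 2726 ± 338 to 3777 ± 365 TPM. Both calls were lost when wild-type replicate 2 or 3 or knockout replicate 1 or 2 was left out, and the Ctsb call also after quantile normalization and without the filter (adjusted p up to 0.0774 for Plau and 0.0907 for Ctsb). Ahnak, the scaffold bound by the S100A10 and annexin A2 complex, had 82.4 and 77.7 TPM (adjusted p 0.666), and Myh9, the myosin heavy chain gene bound by S100A4, had 448 and 339 TPM (adjusted p 0.0700).

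Calprotectin also feeds arachidonic acid to the phagocyte NADPH oxidase. Of 6 of its subunit genes, Ncf4 rose from 85.0 ± 8.02 to 109.8 ± 9.53 TPM and 5 did not pass, including the catalytic subunit gene Cybb, at 1217 and 1170 TPM (adjusted p 0.783). Among those that did not pass, Cyba lay wholly higher in knockout and Rac1 wholly lower (limma adjusted p 0.0705 and 0.0628). The Ncf4 call was lost without the filter, with plain variance moderation and when wild-type replicate 2 or 3 or knockout replicate 1 or 2 was left out (adjusted p up to 0.143). Of 8 tested myeloid transcription factors, none was positive in its difference, and the median was -0.16, close to that of all genes. Only Cebpg, a C/EBP family gene, was called, from 41.9 ± 5.10 to 30.7 ± 0.524 TPM, and its call was lost without the filter, after median-ratio scaling, after quantile normalization and in every fit that left out a library except wild-type replicate 1 (adjusted p up to 0.101). Cebpb, the most abundant of them, had 1446 and 1280 TPM (adjusted p 0.195). Over all tested genes 4.47% were higher and 10.2% lower, and lists of 6 and 8 genes are too short to set against these shares.

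The genes whose profile over the 6 libraries was closest to S100a4 were Clec4e, which encodes the C-type lectin Mincle, and Lcn2, which encodes the siderophore-binding lipocalin 2. Likeness was measured as the root mean square distance between log2(TPM + 1) profiles after centring each gene, among 7561 tested genes with a mean of at least 10 TPM, and was 0.141 and 0.144. Clec4e went from 39.1 ± 15.5 to 79.3 ± 9.37 TPM and Lcn2 from 6.44 ± 2.08 to 15.98 ± 1.92 TPM. The Clec4e call (limma adjusted p 0.0495) was lost in 10 of 15 alternatives (adjusted p up to 0.168), among them each left-out library except wild-type replicate 1, and the Lcn2 call (adjusted p 0.00775) in 0 of 15. Closest to S100a6 were Pdpn, which encodes podoplanin, at 0.0881, and the interferon-inducible gene Xaf1, at 0.111. Pdpn went from 34.6 ± 10.99 to 114 ± 14.1 TPM and Xaf1 from 31.7 ± 13.4 to 105 ± 24.2 TPM. The Pdpn call was lost in 0 of 15 alternatives while the Xaf1 call was lost with each left-out library except wild-type replicate 1 (adjusted p up to 0.140). S100a4 and S100a6 themselves were 0.30 apart. The genes named for each were picked as its closest, so their smaller distances follow from that choice.

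**Figure D4:**
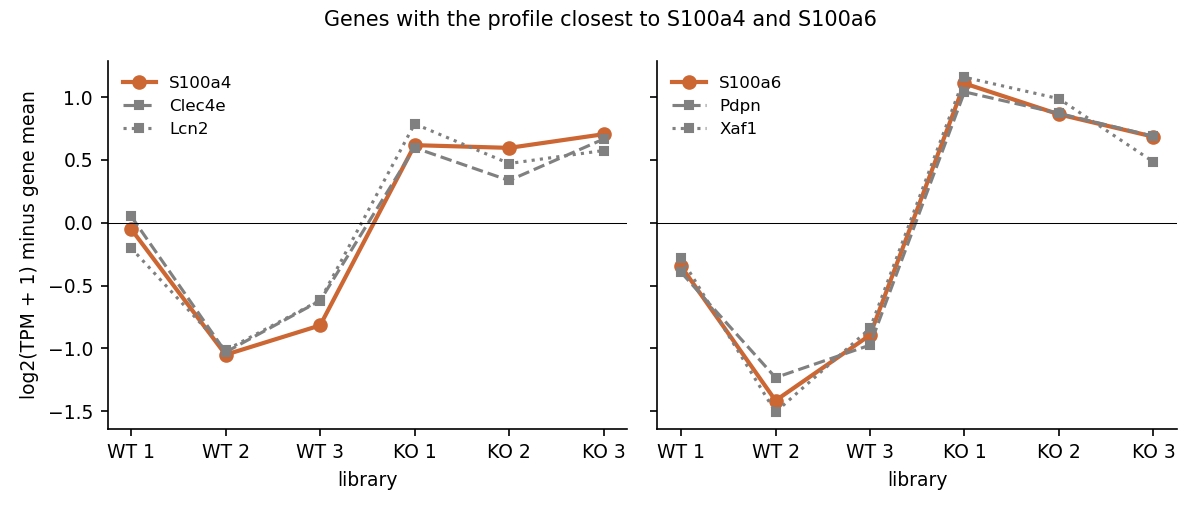
Centred log2(TPM + 1) (vertical axis) in each library (horizontal axis) for S100a4 and S100a6 in orange and the 2 genes closest to each in grey. In wild type all 6 genes were lowest in replicate 2 and highest in replicate 1, and in knockout S100a6 and the 2 genes beside it were highest in replicate 1 and lowest in replicate 3, while S100a4 was highest in replicate 3.

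All 8 genes lie on chromosome 3, the chromosome that also carries Trim33, within 3.05 Mb of each other on GRCm38.p6. S100a1, S100a13, S100a4, S100a6, S100a8 and S100a9 lie in this order between 90511034 and 90695721, and S100a11 and S100a10 lie apart, between 93520496 and 93564645. S100a4 (90603770 to 90606045) and S100a6 (90612894 to 90614414) are separated by 6.85 kb, which holds S100a5. S100a5 was listed at 0.23 TPM in wild-type replicate 1 and at 0 in the other 5 libraries, and did not pass the filter. At this level it cannot show whether it shares the rise of the genes on both sides. The end of S100a4 lies 12.7 Mb from the start of Trim33. The genes are small, with 3 exons in the GENCODE basic transcripts of 7 genes and 4 exons in S100a13.

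Of 15 other tested genes within 500 kb of S100a4, 0 were called in either direction, with a median log2 difference of -0.10. Since 4.47% of all tested genes were higher and 10.2% lower, few calls would be looked for among 15 genes. Of 21 within 0.5 Mb of any S100 gene of the chromosome, 1 was higher, Tdpoz5, which was listed at 0 in every wild-type library, had 2.01 ± 0.741 TPM in knockout and belongs to a family of close paralogs. Over chromosome 3, 23 of 510 other tested genes were higher and 57 lower, close to the shares over all tested genes. The remaining S100 genes that had a row were nearly silent, while S100a2, S100a3, S100a7l2 and S100z had no row and so no value. S100a16 had 1.61 ± 1.19 TPM in wild type against 1.85 ± 0.340 TPM in knockout and was not called, and S100a5, S100a7a, S100a14, S100b and S100g stayed under 1 TPM in every library. S100pbp, which encodes a binding partner rather than an S100 protein, had 6.08 and 5.32 TPM (adjusted p 0.390).

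**Figure D5:**
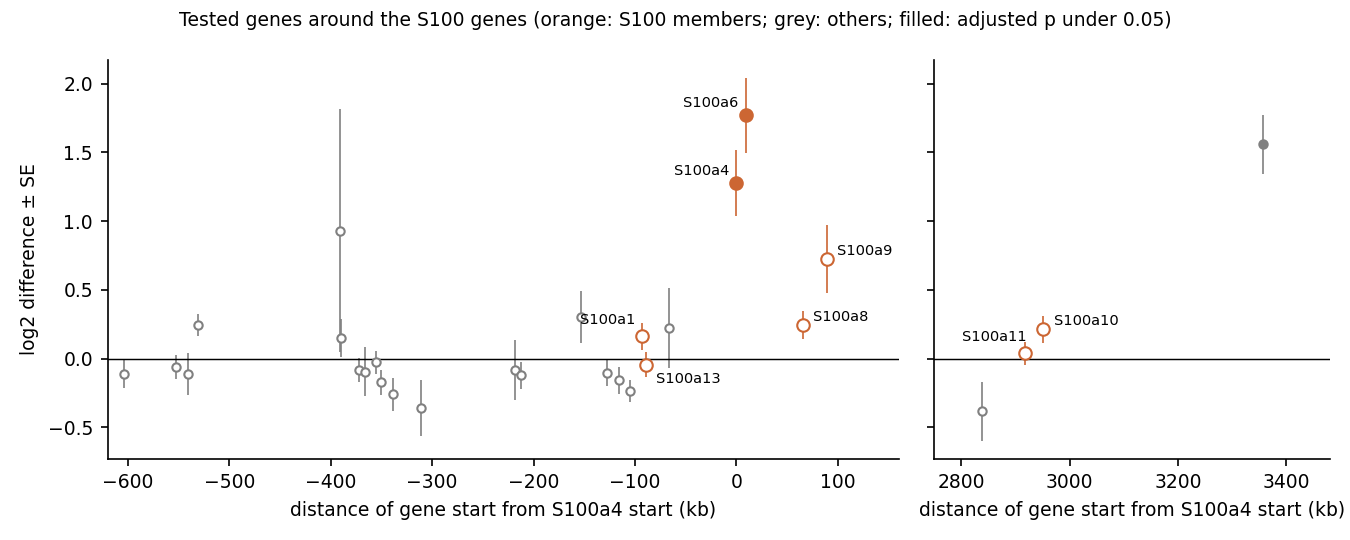
Log2 difference ± SE between knockout and wild type (vertical axis) of tested genes against the distance of their start from the S100a4 start in kb (horizontal axis, split at the gap between the 2 groups of S100 genes). S100a4 and S100a6 are filled as passing, the unnamed grey points within 500 kb are all open, and the filled grey point at right is Tdpoz5.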

How the data were processed

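Per the file headers, the authors deposited TPM values and, in a second table, FPKM values per gene and library, with 2 decimals. HISAT2 2.0.4, Bowtie2 2.2.5 and the build GRCm38.p6 stand in the submitters' processing notes, and the labels' protocols name TRIzol extraction and an MGI library kit. The estimator, its annotation and the use of strand are not stated in the sources used here. Both tables hold estimates, so depth is unknown, and 15182 to 15535 genes were above 0 per library. Of 17142 genes, 17024 matched RefSeq by Entrez ID, which gave positions and promoter sequences on the same build.

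All 6 libraries entered 1 limma fit (3.58.1, R 4.3.3) of knockout minus wild type on log2(TPM + 1), with trended and robust variances, for 11111 genes that reached 1 TPM in 3 or more libraries. All 8 members passed this filter. Differences on this scale understate the change of low genes. In simulated data with 11111 genes, the fit recovered 78 of 100 genes changed by 1 and 99 of 100 changed by 2 on the log2 scale, with 6 false calls. The simulated noise was drawn separately for each gene and library, without shifts shared by the genes of a library. The count of false calls therefore leaves out errors from such shifts. Single genes were also compared with an exact permutation test (scipy 1.17.1). No 2 libraries were duplicates, since at most 0.369% of tested genes had identical values in any pair.

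The members and lists were chosen with earlier results of these data known. Named genes were the members, Trim33, the other S100 genes, up to 3 called genes of each of 16 lists with fixed defining genes, called neighbours and the 2 genes of closest profile to each called member. Camp, Mmp8, Myh9, Anxa4, Anxa5, Anxa9, Bsg, Mcam, Clec9a, Cd209a, Car4, Itgax, Cyba, Rac1 and Chil3 were named after their values were seen. Results on a few genes are not reported here. Alternatives were leaving out each library, a replicate block, plain variance moderation, quantile normalization, median-ratio scaling, a minimum of 5 TPM or no filter, pseudocounts of 0.1 and 5, and the FPKM values. Figures used matplotlib 3.10.9 in Python 3.11.15.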

Additional observations from a re-analysis of the deposited data

How the results depend on the processing

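Among all tested genes, 497 were higher and 1129 lower, so 30.6% of calls were higher; this split was 60.0% after median-ratio scaling (592 higher, 394 lower), 48.8% after quantile normalization (559 higher, 587 lower) and 51.6% without the filter (348 higher, 326 lower). Plain variance moderation gave 672 lower genes. With 1 library left out, the higher genes ranged from 124 (no wild-type replicate 3) to 800 (no wild-type replicate 1) and the lower genes from 84 to 2577 in the same fits. Of the 8 S100 genes, 0 to 4 were higher with 1 library left out, which was 4 when wild-type replicate 1 was dropped and 0 without wild-type replicate 3 or knockout replicate 1 or 2, and 0 were lower in any of these fits. In the 9 alternatives that kept all libraries, S100a4 (1.16 to 1.43) and S100a6 (1.64 to 1.92) passed each time. S100a11 was -0.18 after quantile normalization and -0.01 once wild-type replicate 2 was left out. S100a13 was 0.11 after median-ratio scaling and 0.02 with FPKM values and when wild-type replicate 3 was left out, and neither gene passed in any alternative. Deviations of same-numbered libraries correlated at 0.323, -0.0325 and 0.0854 for replicates 1, 2 and 3. Differently numbered libraries were not compared in this way, so these values cannot decide whether the replicate numbers pair the libraries. With the replicate block, 753 genes were higher and 2147 lower, and 3 S100 genes were higher, S100a9 (adjusted p 0.0165) besides S100a4 and S100a6, while Ly6c2 and Xaf1 did not pass. Low genes such as S100a9 are limited by an unknown depth, and its difference ran from 0.45 with a pseudocount of 5 to 0.87 after quantile normalization.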

Other observations

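Other calcium sensors with EF-hands, outside the S100 family, were also read. Of 15 tested, 1 was higher, 2 were lower and 12 did not pass, with a median log2 difference of -0.10. Over all tested genes 4.47% were higher and 10.2% lower at the same threshold, so these counts are near the background. Aif1, which encodes the macrophage actin-bundling protein IBA1, was at 1.29, 0.83 and 1.19 TPM in wild-type replicates 1, 2 and 3 and at 5.63, 4.59 and 3.4 TPM in knockout replicates 1, 2 and 3. The groups did not overlap, the log2 difference was 1.38 ± 0.19 (SE, limma adjusted p 0.00328), and the call was kept in each of the 14 alternatives in which the gene was tested. Chp1, which encodes a calcineurin-like partner of sodium-proton exchangers, fell from 355 ± 46.6 to 238 ± 28.9 TPM, and the calmodulin gene Calm2 fell from 470 ± 9.64 to 381 ± 21.9 TPM. Both falls no longer passed after median-ratio scaling or when wild-type replicate 2 or 3 or knockout replicate 1 or 2 was left out, and that of Calm2 also with FPKM values, without the filter and with plain variance moderation (adjusted p up to 0.0695 for Chp1 and 0.331 for Calm2). Another calmodulin gene, Calm3, did not pass, at 229 and 226 TPM (adjusted p 0.884) as means of wild type and knockout.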
